A study of Mus musculus with 8 samples.

Results

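The BCL2 family sets the threshold for mitochondrial cell death, and 10 of its genes were followed here in CD4+ CD25+ T cells, a sorted population rich in regulatory T cells. The members were taken by name from a table of 45232 gene rows: 3 pro-survival genes (Bcl2, Bcl2l1, Mcl1) and 7 pro-apoptotic genes (Bax, Bak1, Bcl2l11, Bbc3, Pmaip1, Bad, Bid). All 10 were in the table and passed the filter of at least 1 TPM (a level scaled to transcript length and to the library's total) in at least 2 libraries, as did 13376 genes in all. Cells came from visceral adipose tissue or spleen of C57BL/6 mice whose genotype is labelled WT or Id2 CKO (called KO here), with at least 500 cells a sample. Each of the 4 groups (WT adipose, KO adipose, WT spleen, KO spleen) held 2 libraries, numbered 2 and 3. The deposited column headers write these numbers as exp 2 and exp 3 in all 4 groups, without saying what the libraries of a number share. The labels give neither the driver of the Id2 deletion nor the age of the mice. Nothing states that libraries 2 and 3 of a group are separate mice, and the tests therefore measure the spread between libraries, which may be technical in part.

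Pro-survival members act at the outer mitochondrial membrane, where they bind and restrain the effectors Bax and Bak1. These effectors otherwise open pores that release cytochrome c. BH3-only members (Bcl2l11, which encodes Bim, Bbc3, which encodes Puma, Pmaip1, which encodes Noxa, Bad and Bid) are the death signals: they block the pro-survival members or engage the effectors directly. In regulatory T cells, the opposition of Mcl1 and Bim is known to set how long the cells live, and IL-2 signaling through STAT5 is known to support Mcl1 and Bcl2. Id2 binds E-protein transcription factors and keeps them from E-box DNA, whose general form is CANNTG.

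Id2 was lower in each KO library than in both WT libraries of its tissue (1499 and 1298 against 2249 and 3679 TPM in adipose tissue, 72.1 and 265 against 274 and 346 TPM in spleen), and it was not absent from any. The 8 T cell markers were above 0 in every library and summed to between 3127 TPM (KO adipose 3) and 8804 TPM (KO spleen 2). Foxp3, the lineage factor of regulatory T cells, was lowest in both KO libraries of number 2 (adipose 7.40 TPM, spleen 8.27 TPM) and between 93.5 and 266 TPM elsewhere. In KO adipose 3 the 8 macrophage markers summed to 11006 TPM, against 9.41 to 21.0 TPM in the other adipose libraries, and 8 fibroblast and mesothelial markers reached 730 and 3591 TPM in the KO adipose libraries and 0.328 and 4.80 TPM in the WT ones. Read depth cannot be recovered from TPM and is unknown for each value. In bulk samples, fewer cells of a type and less RNA per cell cannot be told apart.

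Promoter sequences show what the members have in their regulatory DNA that the choice of members did not use. RefSeq windows on GRCm38.p6 were matched for 9 of the 10 members (all but Pmaip1), 15 windows in all, and the 250 bases before each start site were searched on both strands. The E-box form CACCTG, whose reverse complement is CAGGTG and which is among the CANNTG matches, was found in 17.2% of 32851 promoter windows of this length, and TGTTTAC, whose reverse complement is GTAAACA and which FOXO factors are known to bind, in 3.17%. CACCTG was in 1 window each of Bbc3 and Bad, TGTTTAC was in 1 window each of Bbc3 and Bcl2l11, and CAGCTG, found in 13.0% of all windows, was in none of the 15. The 3 windows printed are those of Bcl2, Bbc3 and Bcl2l11. Bcl2 and Bbc3 were picked from these data, for their folds between genotypes in adipose tissue, where neither passed the test given below. Bcl2l11 is the other member with TGTTTAC. None of the 3 windows overlaps a GENCODE M21 exon, and capitals mark CACCTG and TGTTTAC on either strand.

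Bcl2 (GRCm38.p6, chr1:106714291-106714540, minus strand): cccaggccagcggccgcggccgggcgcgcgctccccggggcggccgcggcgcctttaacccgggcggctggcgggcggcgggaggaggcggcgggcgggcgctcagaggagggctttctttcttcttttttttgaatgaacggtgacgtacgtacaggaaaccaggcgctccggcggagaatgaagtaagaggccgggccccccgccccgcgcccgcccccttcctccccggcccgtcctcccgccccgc
Bbc3, before the second of 3 start sites (GRCm38.p6, chr7:16310011-16310260, plus strand): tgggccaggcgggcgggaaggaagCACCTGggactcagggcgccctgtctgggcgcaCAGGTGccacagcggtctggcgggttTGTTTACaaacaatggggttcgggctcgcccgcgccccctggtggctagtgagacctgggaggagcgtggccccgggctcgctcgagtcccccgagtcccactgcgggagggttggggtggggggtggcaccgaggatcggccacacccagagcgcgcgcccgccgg
Bcl2l11, before the first of 2 start sites (GRCm38.p6, chr2:128125788-128126037, plus strand): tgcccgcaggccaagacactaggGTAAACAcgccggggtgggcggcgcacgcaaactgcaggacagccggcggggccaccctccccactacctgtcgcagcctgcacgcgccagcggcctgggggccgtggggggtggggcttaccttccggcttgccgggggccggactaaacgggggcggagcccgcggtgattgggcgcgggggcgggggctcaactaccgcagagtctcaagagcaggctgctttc
The Bcl2 window held no CANNTG of any kind. The same was true of both Bcl2l11 windows, the window before the first start site of Bbc3, and those of Bid and Bak1. The other member windows held at least 1, as did 66.2% of all windows. The Bbc3 window held CACCTG at 2 places and TGTTTAC at 1, and the Bcl2l11 window TGTTTAC at 1. A match is a description of letters and no evidence of binding.

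Bax was the most abundant member in every library, at 151 to 278 TPM, and Bak1, the other effector, the least abundant by mean over libraries, at 0.183 to 2.98 TPM. By mean over the 8 libraries the order was Bax (212 TPM), Mcl1 (80.1 TPM), Bcl2 (50.9 TPM), Bad (38.5 TPM), Bid (29.4 TPM), Bcl2l1 (26.2 TPM), Pmaip1 (19.4 TPM), Bbc3 (6.29 TPM), Bcl2l11 (4.38 TPM) and Bak1 (1.70 TPM). The ranges of Bad (25.4 to 56.2 TPM), Bid (13.3 to 37.6 TPM) and Bcl2l1 (6.92 to 52.3 TPM) overlapped, so their order is not fixed beyond their spread. Bax made up 61.3 to 73.2% of the summed level of the 7 pro-apoptotic members. From the lowest to the highest library, Bax varied by 1.84-fold, Mcl1 by 2.26-fold and Pmaip1 by 10.1-fold.

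**Figure D1:**
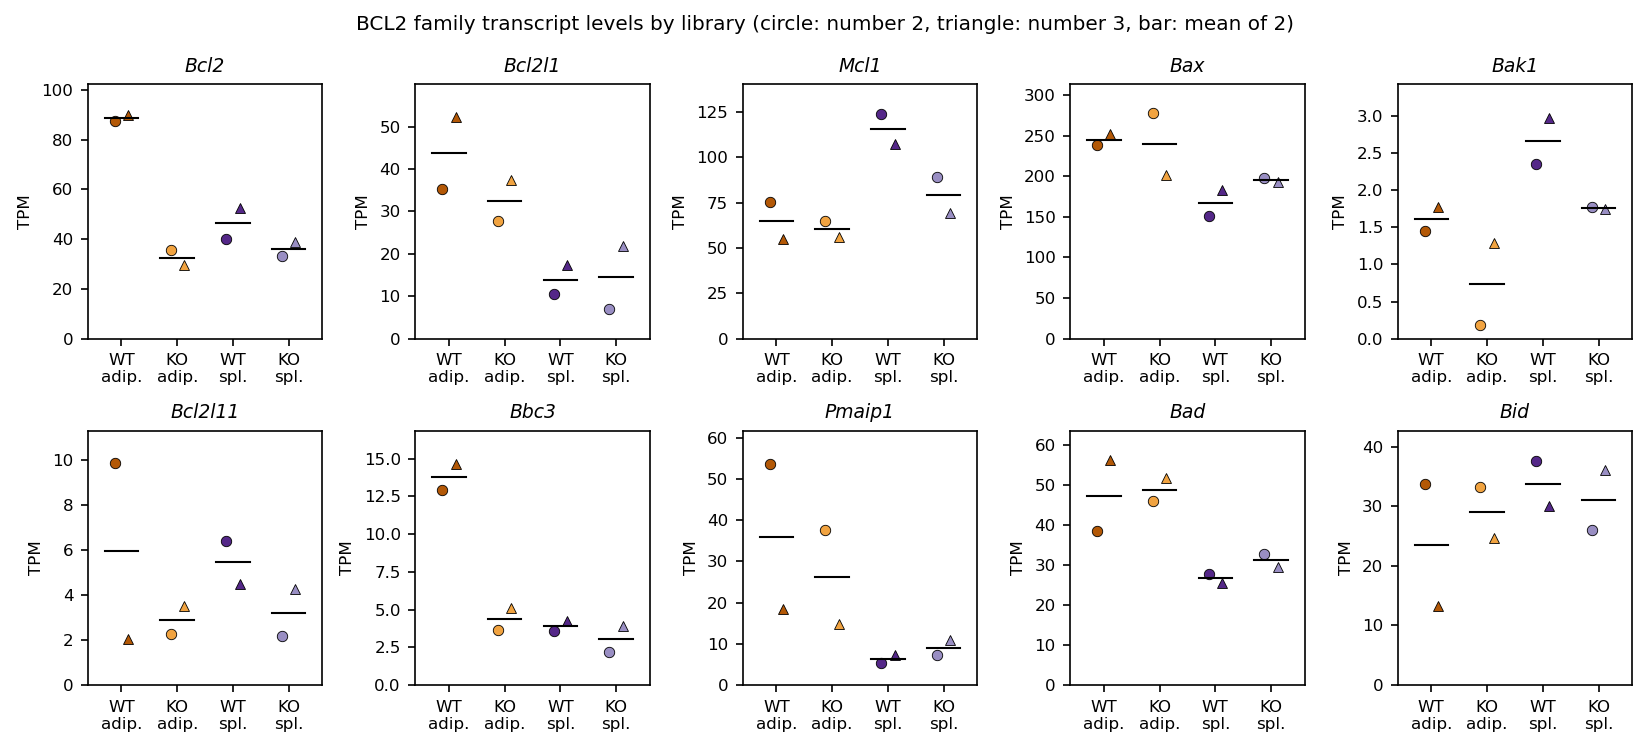
TPM of the 10 members (y axis, linear, from 0) in the 4 groups (x axis), with a circle for library 2, a triangle for library 3 and a bar for the mean of the 2. Bcl2 and Bbc3 are highest in both WT adipose libraries, Mcl1 is highest in both WT spleen libraries, and Pmaip1 and Bcl2l1 are higher in adipose tissue than in spleen.

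The pro-survival members were compared first between genotypes. Bcl2 reached 87.6 and 89.95 TPM in the WT adipose libraries, against 35.6 and 29.5 TPM in the KO ones. The WT spleen libraries held 40.2 and 52.6 TPM of Bcl2 and the KO spleen libraries 33.1 and 39.0 TPM. All 4 KO libraries thus lay below all 4 WT libraries, by a narrow margin in spleen. On the log2 scale KO minus WT came to -1.43 (SE 0.33, limma adjusted p = 0.22) for adipose libraries and -0.35 (SE 0.33, limma adjusted p = 1) for spleen, and -0.89 (SE 0.23, limma adjusted p = 0.757) as the mean over tissues. None of these passed the threshold of 0.05. The groups separated in this way for 1% of tested genes with KO lower and for 0.224% with KO higher. The difference between the tissues in the effect of genotype did not pass either (-1.08, SE 0.46, limma adjusted p = 1). After quantile normalization the spleen groups overlapped, with Bcl2 at 45.8 in both WT spleen 2 and KO spleen 2. Per 1000 TPM of the T cell list, Bcl2 was at 11.9 and 14.5 in WT and at 4.44 and 9.43 in KO adipose tissue, still without overlap. In spleen that measure overlapped, at 4.67 and 7.92 in WT and 3.75 and 5.56 in KO. KO adipose 3 and KO spleen 3, in which Foxp3 was at 98.4 and 226 TPM, also lay below the WT libraries of their tissue in Bcl2. For KO spleen 3 the margin was narrow (39.0 against 40.2 TPM). KO adipose 3 held 11006 TPM of macrophage markers and the lowest sum of T cell markers (3127 TPM). The part of the mix of cells, with or without Foxp3, in the level of Bcl2 was not tested.

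Mcl1, which encodes a short-lived guardian that is needed for regulatory T cell survival, stood at 75.3 and 54.9 TPM in the WT adipose libraries and 64.8 and 56.2 TPM in the KO ones. The genotypes overlapped, with a log2 fold change of -0.09 (95% interval -0.83 to 0.65, limma adjusted p = 0.958) that turned positive after quantile normalization (0.12) or without WT adipose 2 (0.14) or KO adipose 3 (0.010). WT spleen had 124 and 108 TPM of Mcl1 and KO spleen 89.1 and 69.2 TPM (-0.55, SE 0.32, limma adjusted p = 1), lower in both KO libraries but not past the test. Bcl2l1, which encodes Bcl-xL, had 35.4 and 52.3 TPM (WT adipose), 27.6 and 37.5 TPM (KO adipose), 10.5 and 17.3 TPM (WT spleen) and 6.92 and 21.9 TPM (KO spleen). Its genotypes overlapped in both tissues.

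Summed over the 3 members, pro-survival transcripts came to 198 and 197 TPM (WT adipose), 128 and 123 TPM (KO adipose), 175 and 178 TPM (WT spleen) and 129 and 130.2 TPM (KO spleen). Each KO sum lay below each WT sum, with other pro-survival genes such as Bcl2a1b left out. These sums are a description of members chosen with results known, and no test was made of them. After quantile normalization the gap within each tissue remained (157 and 167 against 122 and 114 in adipose tissue, 188 and 198 against 159 and 136 in spleen), although KO spleen 2 then lay above WT adipose 2. Per 1000 TPM of the T cell list it did not remain in adipose tissue, where KO adipose 3, the library with the most macrophage transcripts and the lowest T cell sum, was highest at 39.4 and KO adipose 2 lowest at 16.0, against 26.9 and 31.8 in WT.

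**Figure D2:**
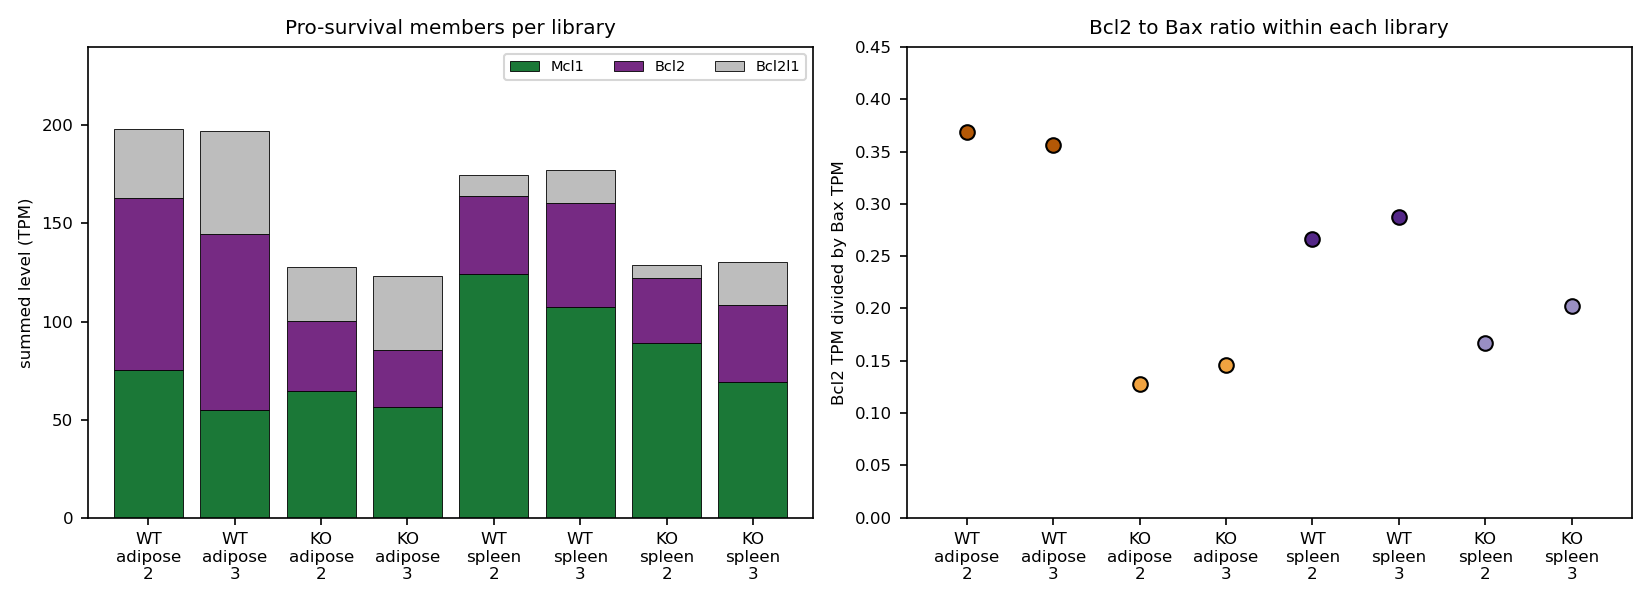
Left, stacked bars of the TPM of Mcl1, Bcl2 and Bcl2l1 in each of the 8 libraries (y axis from 0). Right, Bcl2 TPM divided by Bax TPM in each library: the 4 KO libraries lie at 0.128 to 0.203 and the 4 WT libraries at 0.266 to 0.368.

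Neither effector passed the test between genotypes. Bax had 238 and 252 TPM in WT adipose libraries and 278 and 202 TPM in KO ones (log2 fold change -0.05, 95% interval -0.73 to 0.64, limma adjusted p = 0.979), a sign that quantile normalization (0.038) or leaving out KO adipose 3 (0.18) turned. Spleen libraries had 151 and 183 TPM (WT) and 198 and 193 TPM (KO) (0.23, SE 0.30, limma adjusted p = 1), both KO libraries being higher. The ratio of Bcl2 to Bax within a library was 0.368 and 0.357 in WT adipose tissue against 0.128 and 0.146 in KO. In spleen it was 0.266 and 0.287 in WT against 0.167 and 0.203 in KO. Multiplying a whole library by a factor leaves this ratio unchanged, while the mix of cells, whose part was not tested, can move it. Bak1 had 1.46 and 1.78 TPM (WT) and 0.183 and 1.30 TPM (KO) in adipose tissue (-0.66, SE 0.55, limma adjusted p = 0.799), and 2.35 and 2.98 TPM (WT) and 1.77 and 1.75 TPM (KO) in spleen (-0.41, SE 0.55, limma adjusted p = 1). Bak1 was thus lower in each KO library than in the WT libraries of its tissue, at levels near the filter.

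Among the BH3-only members, Bbc3, a p53 and FOXO target that responds to cytokine loss and DNA damage, reached 12.9 and 14.7 TPM in WT adipose libraries but 3.65 and 5.11 TPM in KO ones. The log2 fold change was -1.47 (SE 0.52) and did not pass (limma adjusted p = 0.58). Spleen libraries had 3.59 and 4.25 TPM (WT) and 2.17 and 3.92 TPM (KO) of Bbc3, so that all libraries other than WT adipose lay between 2.17 and 5.11 TPM. The difference between the tissues in the effect of genotype was -1.16 (SE 0.73, limma adjusted p = 1), and the mean effect of genotype -0.89 (SE 0.37, limma adjusted p = 0.917). Bcl2l11, the main antagonist of Mcl1 and Bcl2 in lymphocytes, had 9.88 and 2.05 TPM (WT) and 2.26 and 3.51 TPM (KO) in adipose tissue. The WT adipose libraries were the highest and the lowest of all 8, so no difference could be read there. Spleen libraries had 6.41 and 4.51 TPM (WT) and 2.19 and 4.26 TPM (KO), WT above KO (-0.64, SE 0.71, limma adjusted p = 1).

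Pmaip1, whose product binds Mcl1 above other pro-survival members, had 53.6 and 18.4 TPM (WT) and 37.7 and 14.7 TPM (KO) in adipose tissue, with library 2 above library 3 in both genotypes. Its spleen values were 5.33 and 7.39 TPM (WT) and 7.27 and 10.9 TPM (KO). Bad, which growth factor signaling inactivates by phosphorylation, had 38.6 and 56.2 TPM (WT) and 45.9 and 51.7 TPM (KO) in adipose tissue, and 27.9 and 25.4 TPM (WT) and 32.9 and 29.5 TPM (KO) in spleen. The spleen groups of Bad did not overlap (0.22, SE 0.35, limma adjusted p = 1). Bid, which links death receptors to mitochondria once caspase-8 has cut it, had 33.7 and 13.3 TPM (WT) and 33.3 and 24.7 TPM (KO) in adipose tissue, and 37.6 and 30.1 TPM (WT) and 26.0 and 36.2 TPM (KO) in spleen. The genotypes overlapped for Pmaip1 and Bid in both tissues.

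Over the family, limma called 0 of 10 members between genotypes in adipose tissue, where 0.284% of all tested genes were called, and 2 members (Bcl2 and Bbc3) had an unadjusted p under 0.05, as did 6.97% of genes. Log2 fold changes were positive for 2 of 10 members, against 31.9% of genes, and for 4 after quantile normalization, against 43.7% of genes. Before that normalization the members had a median of -0.40 against -0.27 over all tested genes. The genotypes did not overlap for 3 members, all lower in KO (Bcl2, Bbc3, Bak1), and 27.5% of tested genes separated in that direction against 7.66% in the other. In spleen limma called 0 of 10 members and 0% of genes, with 0 members and 0.478% of genes at an unadjusted p under 0.05. There 3 of 10 members were positive, against 35.3% of genes, and 5 after quantile normalization, against 50.4% of genes. Before that normalization the median was -0.22 against -0.12 over all tested genes. In spleen 4 members lay lower in KO without overlap (Bcl2, Mcl1, Bcl2l11, Bak1), against 13.9% of genes, and 2 higher (Bax, Bad), against 5.93%. Averaged over the tissues, limma called 0 of 10 members and 0% of genes. There 2 members (Bcl2 and Bbc3) and 3.76% of genes had an unadjusted p under 0.05, and 4 members and 30.7% of genes were positive. For the difference between tissues in the effect of genotype, limma called 0 of 10 members and 0.0299% of genes, with 1 member (Bcl2) and 3.06% of genes at an unadjusted p under 0.05 and positive values for 3 members and 39.6% of genes.

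**Figure D3:**
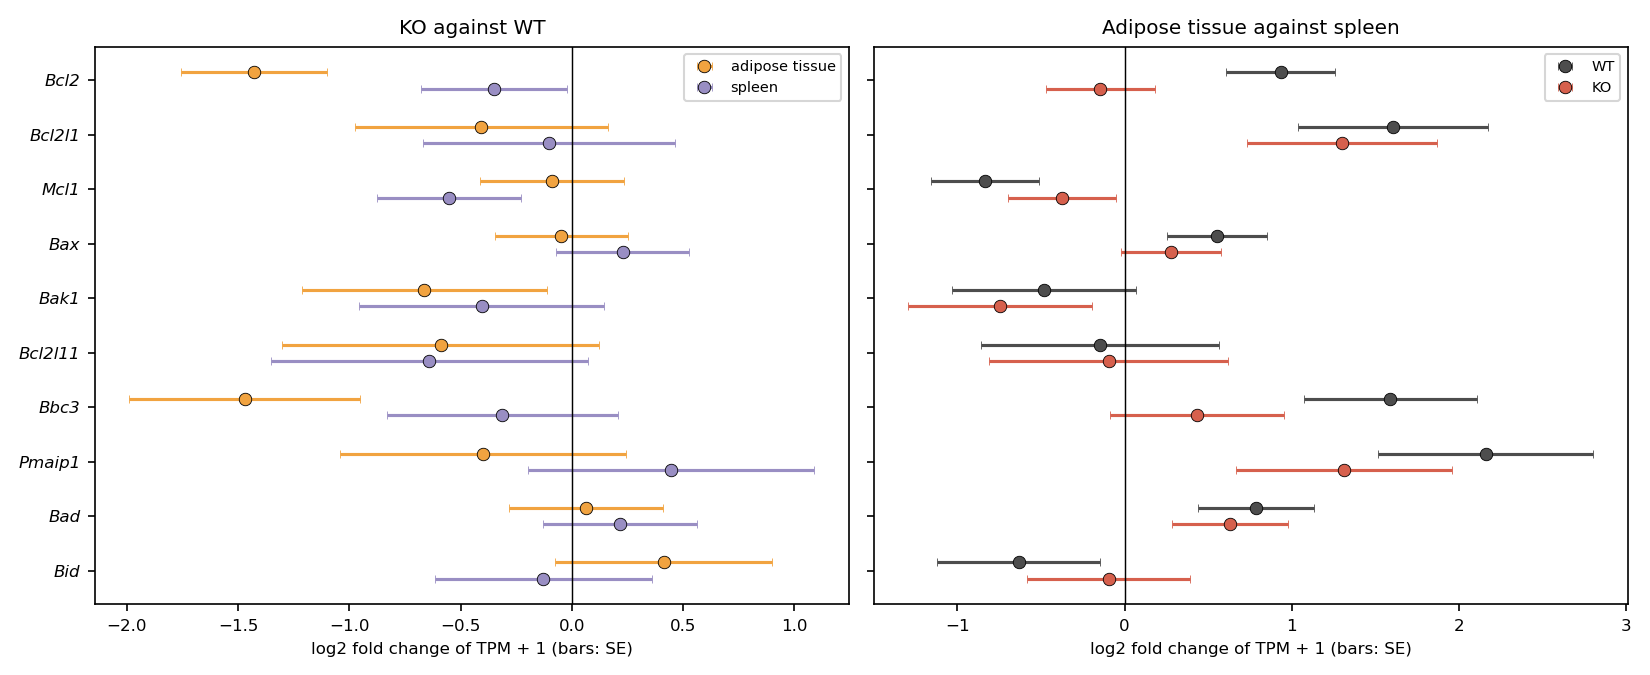
Log2 fold changes of TPM + 1 of the 10 members (x axis, bars show limma's SE), KO against WT on the left and adipose tissue against spleen on the right. Bcl2 (-1.43) and Bbc3 (-1.47) in adipose tissue lie farthest from 0 on the left, and Pmaip1 (2.16 in WT, 1.31 in KO) on the right.

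Among the 3 pro-survival members, the one with the highest level differed between tissues in WT and not in KO. In WT spleen Mcl1 made up 71.0 and 60.6% of the pro-survival sum and Bcl2l1 5.98 and 9.75%, while in WT adipose tissue Mcl1 made up 38.0 and 27.8% and Bcl2l1 17.8 and 26.5%. Bcl2 was the highest of the 3 in both WT adipose libraries and Mcl1 in the other 6 libraries. In KO adipose tissue Mcl1 held 50.6 and 45.6% and Bcl2 27.8 and 23.9%. These shares come from levels per transcript length within a library.

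Bcl2l1 was higher in adipose tissue than in spleen in every library, at 27.6 to 52.3 TPM against 6.92 to 21.9 TPM. Adipose minus spleen was 1.60 on the log2 scale (SE 0.57, limma adjusted p = 0.313) in WT, 1.30 (SE 0.57, limma adjusted p = 0.389) in KO and 1.45 (SE 0.40, limma adjusted p = 0.0946) as the mean over genotypes. The mean passed with the replicate number as a block (limma adjusted p = 0.0323) and without KO spleen 3 (limma adjusted p = 0.0432). Red cell precursors also express Bcl2l1, and the sum of 5 erythroid markers moved with it between the libraries of each group and across the spleen libraries. In spleen both had the same order, from KO spleen 2 (785 TPM of markers, 6.92 TPM of Bcl2l1) through WT spleen 2 (10739 and 10.5 TPM) and WT spleen 3 (26957 and 17.3 TPM) to KO spleen 3 (63217 and 21.9 TPM). In adipose tissue library 3 exceeded library 2 in both measures in WT (markers 37.0 and 2668 TPM in libraries 2 and 3) and in KO (24599 and 41287 TPM), while Bcl2l1 was higher in WT than in the KO library of the same number. The part of red cell transcripts in the level of Bcl2l1 was not tested.

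Mcl1 went the other way, at 54.9 to 75.3 TPM in adipose tissue and 69.2 to 124 TPM in spleen, with KO spleen 3 inside the adipose range. Its log2 fold change was -0.84 (SE 0.32, limma adjusted p = 0.346) in WT, -0.37 (SE 0.32, limma adjusted p = 0.686) in KO and -0.61 (SE 0.23, limma adjusted p = 0.175) as the mean. After quantile normalization the mean was -0.93 and passed (limma adjusted p = 0.0488). Bcl2 was higher in WT adipose tissue than in WT spleen (0.93, SE 0.33, limma adjusted p = 0.313), but not past the test, and in KO its tissues overlapped (-0.15, SE 0.33, limma adjusted p = 0.895). The mean over genotypes for Bcl2 was 0.39 (SE 0.23, limma adjusted p = 0.344) and 0.0081 after quantile normalization.

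Pmaip1 had the largest tissue difference of the members. It was at 14.7 to 53.6 TPM in the 4 adipose libraries and at 5.33 to 10.9 TPM in the 4 spleen libraries, with no overlap. Its log2 fold change was 2.16 (SE 0.64, limma adjusted p = 0.26) in WT, 1.31 (SE 0.64, limma adjusted p = 0.452) in KO and 1.74 (SE 0.46, limma adjusted p = 0.0824) as the mean, which passed without KO adipose 3 (2.06, limma adjusted p = 0.0424). The ratio of Mcl1 to Pmaip1, its antagonist, was 1.40 to 3.81 in adipose tissue and 6.33 to 23.3 in spleen, in both genotypes without overlap. Bbc3 was higher in WT adipose tissue than in WT spleen (1.59, SE 0.52, limma adjusted p = 0.303), overlapped between tissues in KO, and had a mean of 1.01 (SE 0.37, limma adjusted p = 0.161). Bad was at 38.6 to 56.2 TPM in adipose tissue and 25.4 to 32.9 TPM in spleen (mean 0.71, SE 0.24, limma adjusted p = 0.145). Bax was at 202 to 278 TPM against 151 to 198 TPM (mean 0.42, SE 0.21, limma adjusted p = 0.28). Both lay higher in all 4 adipose libraries, and neither passed. Bak1 was lower in adipose tissue within each genotype, without passing (-0.48, SE 0.55, limma adjusted p = 0.722 in WT, and -0.74, SE 0.55, limma adjusted p = 0.632 in KO). The ratio of Bcl2 to Bcl2l11 overlapped between tissues and genotypes, from 6.28 to 43.8.

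Limma called 0 of 10 members between tissues in WT, where 0.164% of genes were called, 0 of 10 in KO, where 1.08% were, and 0 of 10 as the mean over genotypes, where 3.06% were. At an unadjusted p under 0.05 there were 5 members and 13% of genes in WT, 0 members and 12.9% in KO, and 5 members and 22.6% for the mean. Positive values were found for 6 members and 65.5% of genes in WT, 5 members and 58.5% in KO, and 6 members and 63.8% for the mean. After quantile normalization the members' counts were again 6, 5 and 6, while the shares of all genes were 49.8%, 44.2% and 47.1%. In WT 6 members lay higher in adipose tissue without overlap (Bcl2, Bcl2l1, Bax, Bbc3, Pmaip1, Bad), against 37.8% of tested genes, and 2 lower (Mcl1, Bak1), against 15.1%. In KO 4 lay higher (Bcl2l1, Bax, Pmaip1, Bad), against 22.1%, and 2 lower (Mcl1, Bak1), against 14.6%. Over all 8 libraries 4 lay higher (Bcl2l1, Bax, Pmaip1, Bad), against 11.6%, and 0 lower, against 4.66%. The median log2 fold change of the members was 0.67 in WT and 0.09 in KO, against 0.32 and 0.16 over all tested genes. Sums of 11 immediate early genes, which respond to handling of cells, also separated the tissues, at 7822 to 18633 TPM in adipose tissue and 453 to 878 TPM in spleen. Their part in the level of any member was not tested.

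Setting the classes against each other, the summed pro-apoptotic level was 303 to 401 TPM in adipose tissue and 234 to 279 TPM in spleen. The ratio of summed pro-survival to summed pro-apoptotic transcripts was 0.746 and 0.689 in WT spleen, 0.511 and 0.550 in WT adipose tissue, 0.478 and 0.466 in KO spleen and 0.319 and 0.407 in KO adipose tissue. WT lay above KO in each tissue, and spleen above adipose tissue in each genotype. Because Bax dominates the sum, the classes were also compared by the mean log2 level of their members, which weights each gene alike. On that scale pro-survival exceeded pro-apoptotic members by 1.31 and 1.87 in WT adipose tissue, 1.33 and 1.34 in KO adipose tissue, 1.45 and 1.69 in WT spleen and 1.24 and 1.40 in KO spleen. The adipose genotypes overlapped there, and so did the tissues within each genotype. Neither the genotype separation in adipose tissue nor the tissue separation seen in the sums held when every member counted equally. In spleen WT still lay above KO.

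In the wider pathway, Bik, a BH3-only gene of the endoplasmic reticulum and mitochondria, had 68.1 and 65.7 TPM (WT) and 32.0 and 37.5 TPM (KO) in adipose tissue and 1.59 and 3.92 TPM (WT) and 3.69 and 5.46 TPM (KO) in spleen. It was higher in adipose tissue and passed in WT (log2 fold change 4.25, SE 0.47, limma adjusted p = 0.0203), in KO (2.69, SE 0.47, limma adjusted p = 0.0432) and as the mean (3.47, SE 0.33, limma adjusted p = 0.00426). The WT call ended without a filter on low values (limma adjusted p = 0.09) and without WT adipose 2 (0.0608), WT adipose 3 (0.203), WT spleen 2 (0.231) or WT spleen 3 (0.101). The KO call ended without any 1 library other than KO adipose 2 (limma adjusted p = 0.0732 to 0.324), with a pseudocount of 0.1, no filter, no trend, library weights or the KO groups alone (0.0518 to 0.137), and the mean passed under all alternatives run. Bik was lower in both KO adipose libraries than in both WT ones, without passing (-0.93, SE 0.47, limma adjusted p = 0.748), and the difference between tissues in that effect did not pass (-1.55, SE 0.67, limma adjusted p = 1). Over 5 tested genes of its list of other pro-apoptotic members, limma called 1 as higher in adipose tissue in WT, in KO and as the mean, which was Bik each time. Of all tested genes, 0.164% were called in WT, 1.08% in KO and 3.06% for the mean, in either direction.

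**Figure D4:**
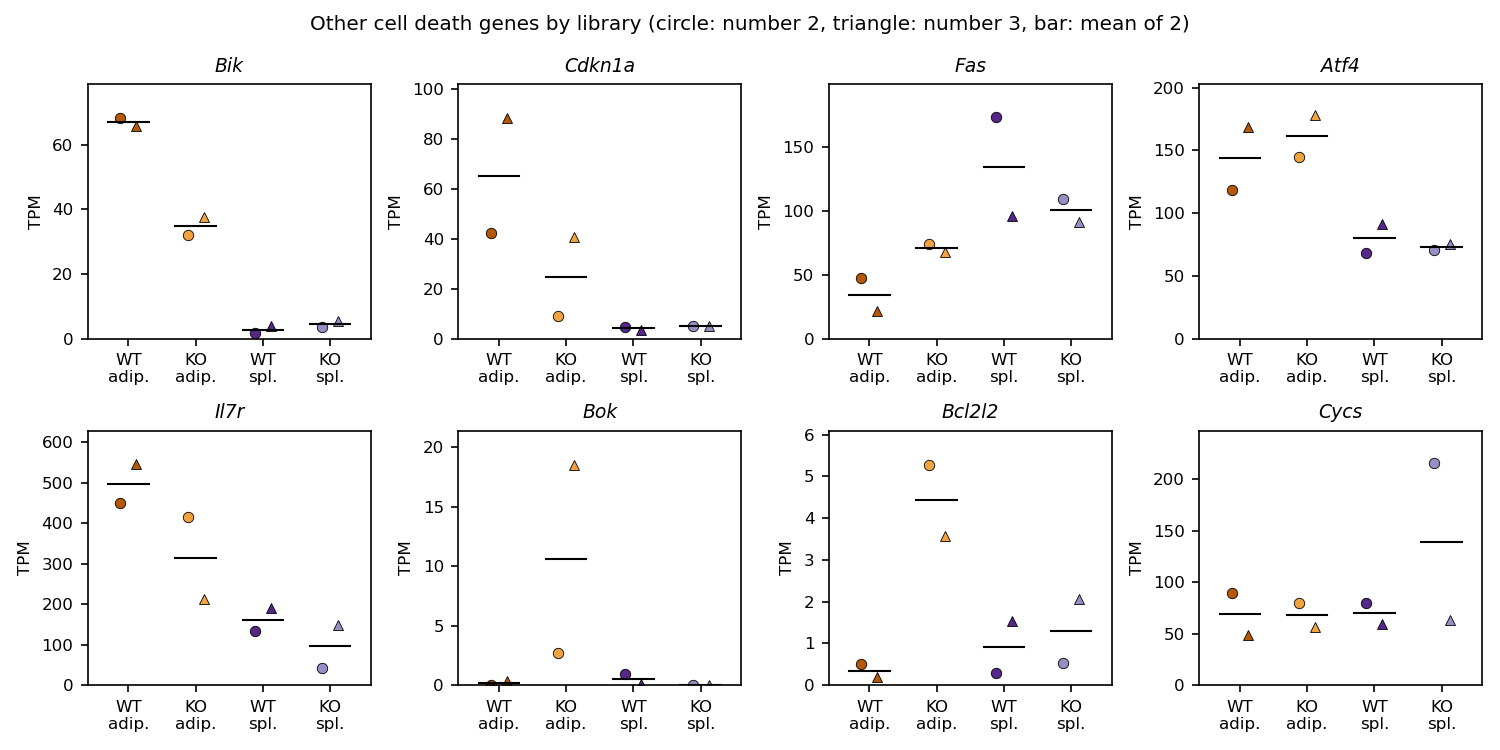
TPM (y axis, linear, from 0) of 8 other cell death and survival genes in the 4 groups (x axis), with a circle for library 2, a triangle for library 3 and a bar for the mean of the 2. Bik is at 32.0 to 68.1 TPM in adipose tissue and 1.59 to 5.46 TPM in spleen, and Bok is highest in KO adipose 3 at 18.5 TPM.

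In the list of 8 p53 and stress genes, Cdkn1a, the cell cycle inhibitor p21, had 42.3 and 88.4 TPM (WT) and 8.83 and 40.6 TPM (KO) in adipose tissue and 3.53 to 5.08 TPM in spleen. It passed as the mean over genotypes (2.68, SE 0.50, limma adjusted p = 0.0338) and not in WT alone (3.62, SE 0.70, limma adjusted p = 0.108), where it passed without KO adipose 2 (0.0189), KO adipose 3 (0.0218) or with the WT groups alone (0.0255). The mean call ended without a filter on low values (limma adjusted p = 0.119) and without WT adipose 3 (0.114), KO spleen 3 (0.0578), KO spleen 2 (0.138), WT spleen 3 (0.131) or WT spleen 2 (0.129). Atf4, a regulator of the integrated stress response, was at 119 to 179 TPM in adipose tissue and 68.4 to 91.4 TPM in spleen (0.98, SE 0.23, limma adjusted p = 0.0643), and passed with the replicate block (limma adjusted p = 0.034) or without KO adipose 2 (0.0494). Fas, the death receptor, was at 21.5 to 74.0 TPM in adipose tissue and 91.1 to 173 TPM in spleen (-1.23, SE 0.32, limma adjusted p = 0.0807), and passed with the replicate block (limma adjusted p = 0.036) or quantile normalization (0.0303). Il7r, the receptor of a cytokine that sustains Bcl2 in T cells, was at 212 to 546 TPM in adipose tissue and 41.6 to 190.1 TPM in spleen (1.77, SE 0.42, limma adjusted p = 0.0647), and passed without KO adipose 3 (0.0392) or KO spleen 3 (0.0265).

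Between genotypes in adipose tissue, limma called 0 tested genes of the lists of other pro-survival (4 genes), other pro-apoptotic (5), mitochondrial caspase (11), inhibitor of apoptosis (5), death receptor (9), p53 and stress (8), STAT5 cytokine receptor (8) and protein stability genes (9). The unadjusted p was under 0.05 for 1 gene each in the first, the second, the death receptor, p53 and STAT5 lists and for 0 in the others. Of all tested genes, 0.284% were called and 6.97% had an unadjusted p under 0.05. Log2 fold changes were positive for 0 of 8 genes of the STAT5 list (median -0.84) and for 1 of 5 inhibitor of apoptosis genes (median -0.94), against 31.9% of all tested genes (median -0.27). After quantile normalization both counts were equal to these, with medians of -0.61 and -0.73, against 43.7% of genes (median -0.089). The remaining lists differed in direction. Before that normalization 4 of 5 other pro-apoptotic (median 0.30), 1 of 4 other pro-survival and 3 of 11 mitochondrial caspase genes were positive. So were 3 of 9 death receptor, 1 of 8 p53 and stress and 2 of 9 protein stability genes. After it, 6 mitochondrial caspase and 4 p53 and stress genes were positive. The sum of 4 regulatory T cell markers (Foxp3, Ctla4, Ikzf2 and Il2ra, which the STAT5 list also holds) was lower too in KO adipose libraries (351 and 330.5 TPM) than in WT ones (625 and 413 TPM). None of the 4 separated these genotypes by itself, and Ikzf2 alone leaned higher in KO (43.2 and 36.2 against 37.8 and 34.8 TPM). The part of regulatory T cell content in the values of these lists was not tested. Bok, a BAX-like effector, had 0 and 0.307 TPM (WT) and 2.69 and 18.5 TPM (KO) in adipose tissue (2.89, SE 0.79, limma adjusted p = 0.358). Bcl2l2, which encodes Bcl-w, had 0.493 and 0.192 TPM (WT) and 5.28 and 3.58 TPM (KO) in adipose tissue (2.01, SE 0.61, limma adjusted p = 0.463). Both stood highest in the libraries where fibroblast and mesothelial markers summed to 730 and 3591 TPM, whose part in their level was not tested.

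The genes whose log2 levels over the 8 libraries were most like those of a member were taken from 8970 tested genes with a mean of at least 5 TPM. For Bcl2 these were Trim39, Nxpe3 and Tmem229b (Pearson r = 0.957, 0.957 and 0.956), for Bcl2l1 Fbxl5, Cyb5d1 and Ilk (0.997, 0.995 and 0.994), for Mcl1 Nsmce1, Mxd4 and Znrf2 (0.931, 0.92 and 0.917) and for Bcl2l11 Fam49a, Phf10 and Cmtm7 (0.956, 0.931 and 0.929). Tmem229b had 29.8 and 40.7 TPM in the WT adipose libraries and between 10.6 and 16.1 TPM in the other 6 libraries. Ilk, the integrin-linked kinase, was at 172 to 278 TPM in adipose tissue and 41.1 to 139 TPM in spleen. These libraries share 4 groups, 2 library numbers and unknown depth, and the correlations are descriptions without a test.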

How the data were processed

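RNA of sorted CD4+ CD25+ T cells was made into libraries with SMARTer and Nextera XT kits, per the labels' protocols. The deposited table gives TPM, identified from the values, since each of the 8 columns sums to 1000000. The genome build was mm9, per the submitters' processing notes (aligner, counter, annotation: not given in the sources used here). Members and gene lists were chosen with earlier results of these data known. Folds were computed on log2(TPM + 1) with limma 3.58.1 (R 4.3.3, variance trend), in 1 fit of 4 groups with 4 residual degrees of freedom and 7 contrasts, and Benjamini-Hochberg adjustment covered 13376 genes (at least 1 TPM in at least 2 libraries) at a threshold of 0.05. The shared spread hides unequal groups: the SD of the log2 difference between libraries was 1.49 in KO adipose tissue and 0.70 in WT spleen. The fit was tested on simulated data. Of 100 genes given a log2 change of 2, it called 29 between genotypes in adipose tissue and 22 between tissues in WT. Of 100 genes given a change of 4, it called 78 and 80. It also called 8 and 9 genes that had no change. Most changes of 2 were thus missed.

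The fit behind the printed values has no term for the library number, which the column headers call exp. Any difference shared by the libraries of a number therefore stays in the spread of that fit. By a rule on correlation the numbers do pair the samples (differences between numbers 3 and 2 correlated across genes at 0.128 to 0.382 in the 6 pairs of groups), so the fit with the number as a block was run as an alternative and is printed where it changes a call. Other alternatives were pseudocounts of 0.1 and 5, no filter, a filter at 5 TPM, quantile normalization, no trend, library weights, the compared groups alone and leaving out libraries. All 10 members were named. Other list genes were named where called, and otherwise only from the 4 smallest p-values of a contrast, not each of which is named (Bik between genotypes and Fasl, Cycs and the Bcl2a1 genes were chosen after their values were seen). Not every member's fold is printed in every contrast. Quantile normalization moved the median log2 fold change of all genes from -0.27 to -0.089 between genotypes in adipose tissue and from 0.32 to -0.0033 between tissues in WT. Of the erythroid list, 2 genes (Hbb-b1, Hbb-b2) had no row under those names.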

Additional observations from a re-analysis of the deposited data

How the results depend on the processing

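No member was called in 6 of the 7 contrasts under any alternative run, and reported folds kept their sign except for 2 small ones. In adipose tissue the KO against WT fold turned positive after quantile normalization for Mcl1 (0.12) and Bax (0.038), and ranged over single left-out libraries from -0.32 to 0.14 for Mcl1 and from -0.28 to 0.18 for Bax. For adipose tissue against spleen averaged over genotypes, 0 members were called, but 1 was with the replicate block (Bcl2l1), 1 after quantile normalization (Mcl1) and 0 to 1 without single libraries. The block changed no other member's call. The Bcl2 fold in adipose tissue ranged from -1.56 to -1.28 over the alternatives (limma adjusted p = 0.136 to 0.776). The mean log2 excess of pro-survival over pro-apoptotic members depended on how it was computed. It was 1.33 in KO adipose tissue, but 1.61 with a pseudocount of 0.1, 0.875 with a pseudocount of 5, 0.69 as a median and 1.31 after quantile normalization. In WT spleen it was 1.57, but 1.22 with a pseudocount of 5 and 2.58 as a median. In KO spleen it was 1.32, but 1.49 with a pseudocount of 0.1, 0.934 with a pseudocount of 5 and 1.89 as a median. Causes of these changes were not tested. Quantile normalization, chosen for the sums after seeing the data, moved mean pro-survival sums from 198 to 162 in WT adipose, from 126 to 118 in KO adipose, from 176 to 193 in WT spleen and from 130 to 148 in KO spleen. Over all genes, the count called between tissues as the mean was 409, but 885 with the block, 21 without a filter, 26 without WT spleen 2 and 1178 without KO adipose 2. Between genotypes in adipose tissue it was 38, but 271 without KO adipose 2 and 0 in the adipose groups alone. Without depth, low members such as Bak1 and Bcl2l11 have no counting interval.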

Other observations

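Fasl, the ligand of Fas, split the adipose libraries by number and not by genotype: it was at 165 TPM in WT adipose 2 and 121 TPM in KO adipose 2, against 9.55 TPM in WT adipose 3 and 0.314 TPM in KO adipose 3. Spleen libraries had 6.94 and 7.09 TPM (WT) and 34.4 and 15.9 TPM (KO). Cycs, which encodes cytochrome c, was at 216 TPM in KO spleen 2 and at 49.0 to 89.9 TPM in the other 7 libraries. The pro-survival genes Bcl2a1b and Bcl2a1d were also highest in KO spleen 2, at 773 and 316 TPM, against 290 to 494 TPM and 99.5 to 217 TPM elsewhere. Bcl2a1b alone thus exceeded the sum of Bcl2, Bcl2l1 and Mcl1 in every library. The sums and class ratios above leave out Bcl2a1b and Bcl2a1d, whose genotypes overlapped in each tissue. These genes are near-identical copies, and the treatment of reads they share was not stated, so their single levels are uncertain.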
